A study of Mus musculus with 11 samples.

Results

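The solute carrier genes of cell lines grown from ErbB2-driven mouse mammary tumors were compared between lines that lack Cpt1a, the enzyme that passes long-chain fatty acids into mitochondria for oxidation, and lines with wild-type Cpt1a. Members were the protein-coding genes of the table with a name of the Slc or Slco families, without Slc2a1 and the mitochondrial Slc25a carriers. The table holds 4461 genes, of which 4056 are protein-coding and 103 have such a name, and 83 of these remained after the 19 Slc25a genes and Slc2a1 were set aside. Of the 83, 3 carry an Slc name and are no transporters, namely the scaffold genes Slc9a3r1 and Slc9a3r2 and Slc7a6os, which leaves 80 transporter genes. The name chose the members, but the table itself lists only genes that passed a threshold between the genotypes in these same libraries, so every difference between genotypes below is a description of genes selected for differing.

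All mice were female and carried the MMTV-NIC transgene, in which the MMTV promoter drives an activated ErbB2 (Neu NDL2.5) together with Cre recombinase. The transgene confines excision of floxed Cpt1a to cells in which that promoter is active. Tumors were taken 8 weeks after they became palpable and were dissociated into cultures, which received no treatment and grew in medium with serum, EGF, hydrocortisone, insulin and bovine pituitary extract. The NIC/Cpt1a L/L group, with both conditional Cpt1a alleles, held 4 lines, named KO_1922, KO_1925, KO_2768 and KO_4258. The NIC/Cpt1a +/+ controls, which carry the same ErbB2 and Cre transgene but no conditional allele, held 2 lines, named WT_5257 and WT_8905. Each line had 2 RNA-Seq libraries except KO_2768, for which 1 was used. Genotypes follow the genotype field of the labels and the line names, although the sample titles state the allele status the other way round. Cpt1a has 0 rows in the table and was not analysed here, so the genotype of a library could not be checked by it.

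Library totals were 18247312 to 25386785 reads in NIC/Cpt1a L/L libraries and 15199378 to 17372643 in controls, so depth and genotype cannot be told apart. Values below are CPM, the usual depth-scaled read count of a gene, computed from the library total with TMM scaling and summed over the duplicates of a line. They are given in the order KO_1922, KO_1925, KO_2768 and KO_4258, against WT_5257 and WT_8905. Intervals of counting are not repeated at each value, and 3 reads in the shallowest library correspond to 0.197 CPM in controls and 0.164 CPM in NIC/Cpt1a L/L lines, which covers counting error only. Of 17 mammary epithelial markers only Elf5 is in the table, at 64, 43, 143 and 17.6 CPM against 298 and 316 CPM. The 4 listed fibroblast or mesenchymal markers, of a list of 10, summed to 7.77, 3.29, 1393 and 0 CPM against 0 and 0.0937 CPM. In KO_2768, Dcn alone gave 1368 CPM of that sum, with Pdgfrb at 13.4, Thy1 at 6.16 and Col1a2 at 5.70 CPM. Col1a2 was at 4.35 CPM in KO_1922. Csf1r, the 1 listed leukocyte marker of 7, stood at 4.03, 17.2, 0.0775 and 312 CPM against 0.0316 and 0.437 CPM, and Fabp4, the 1 listed adipocyte marker of 4, at 0.437, 1.25, 2.13 and 1.59 CPM against 0 and 0.125 CPM. None of 4 endothelial markers is listed. KO_2768 and KO_4258 therefore stand apart from the other lines by Dcn and Csf1r. In bulk cultures, fewer cells of a type and less RNA per cell cannot be told apart.

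Solute carriers are membrane proteins that move amino acids, sugars, carboxylates, ions, metals, nucleosides, vitamins and drugs down a gradient, in exchange for another solute, or coupled to sodium, chloride or protons. They include the routes by which mammary cells take up amino acids and nucleosides, balance chloride and pH, and handle zinc and iron. Many work with a partner protein or depend on the sodium and proton gradients that ATP-driven pumps maintain. Genes of a family are numbered together, and members of 1 family can differ in solute, direction and membrane.

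More solute carrier genes were lower than higher in every NIC/Cpt1a L/L line. All 4 NIC/Cpt1a L/L lines lay below both controls in 41 of the 83 members and above both in 21. In 5 of these 62, namely Slc6a17, Slc2a10, Slc2a5, Slc10a6 and Slc11a1, the nearest line of the higher group was under the limit of 3 reads, so that separation lies within counting error. That limit does not mark narrow separations above it, such as those of Slc16a8 and Slco1a6 below. Among the 77 members that passed the filter on low counts these numbers were 37 and 19, which is 48.1% and 24.7%, beside 38.2% and 35.1% of all 4268 listed genes that passed it. The mean direction was lower in 40 and higher in 37 of the 77, with a median log2 fold change of -0.59, while 58.6% of all tested genes were higher and their median was 0.49. Both medians were the same sign when genes at 0 in every library of a group were set to their bound, at -0.59 and 0.48. The median size of the change was 1.45 on the log2 scale over members and 1.19 over all genes tested.

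With the line as the replicate, edgeR's quasi-likelihood test with Benjamini-Hochberg adjustment over 17561 tests called 0 of the 77 members in either direction, as it called 0.0% of all genes tested. At an unadjusted p under 0.05 it gave 12 members higher and 32 lower, beside 21.5% and 29.0% of all genes. The smallest adjusted p among members was 0.115 for Slc16a7, and the smallest over all genes was 0.0838. Adjusted over the listed genes alone, 0 members passed as higher and 6 as lower, beside 1.66% and 3.47% of all genes. DESeq2 on the same line sums called 9 members higher and 26 lower, beside 12.3% and 16.6% of 4194 genes. When duplicates entered as separate libraries, which are not independent, edgeR called 13 of 73 members higher and 34 lower, beside 26.3% and 39.3% of 3940 genes. Adjusted p-values below are those of edgeR by line unless stated otherwise, so none of the genes named passes that threshold.

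**Figure D1:**
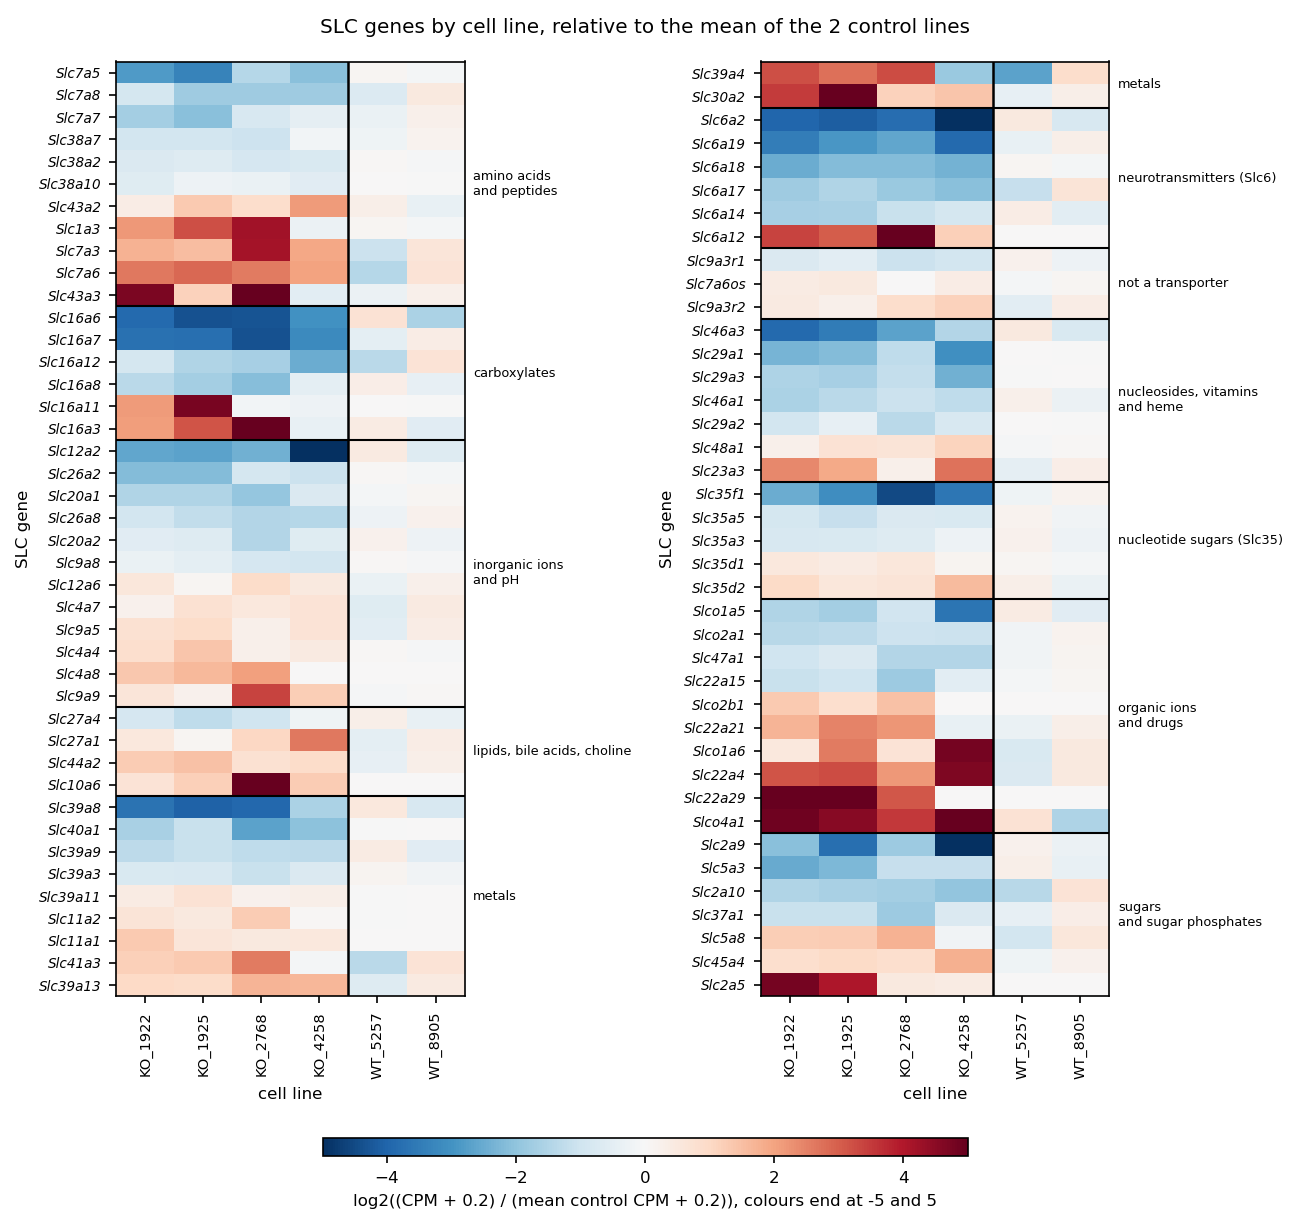
Each row is 1 of 82 SLC genes, grouped by solute class, and each column is 1 cell line, the 4 NIC/Cpt1a L/L lines left of the vertical rule and the 2 controls right of it. Colour gives log2 of (CPM + 0.2) over the mean control CPM + 0.2, blue below and red above the controls, and 40 rows are lower and 21 higher in all 4 NIC/Cpt1a L/L lines.

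The 6 Slc6 genes, sodium- and chloride-coupled carriers of neurotransmitters, amino acids and osmolytes, counted 5 lower and 1 higher, although Slc6a17, 1 of the 5, failed the filter and stood at 0.0486, 0.104, 0.0388 and 0 CPM against 0.189 and 1.12 CPM. The shares to read each class against are 38.2% lower and 35.1% higher in all lines, over all genes that passed the filter. All 3 Slc29 nucleoside carriers were lower in all NIC/Cpt1a L/L lines, as were both Slc20 phosphate carriers, both Slc26 anion exchangers and both Slc46 genes. Inorganic ion and pH carriers were lower in 7 of 13 and higher in 2. Amino acid carriers, lower in 5 of 11 and higher in 3, lay near those shares. Carboxylate carriers of the Slc16 family were lower in 3 of 6 with the other 3 overlapping. Slc5a8, which carries monocarboxylates but is counted with the sugar carriers by its family, overlapped as well, at 27.4, 27.8, 38.5 and 10.3 CPM against 6.06 and 17 CPM. Metal carriers divided into 5 higher, 4 lower and 2 overlapping. The 31 families were not uniform, since 12 of the 20 with more than 1 listed member held members of both directions.

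**Figure D2:**
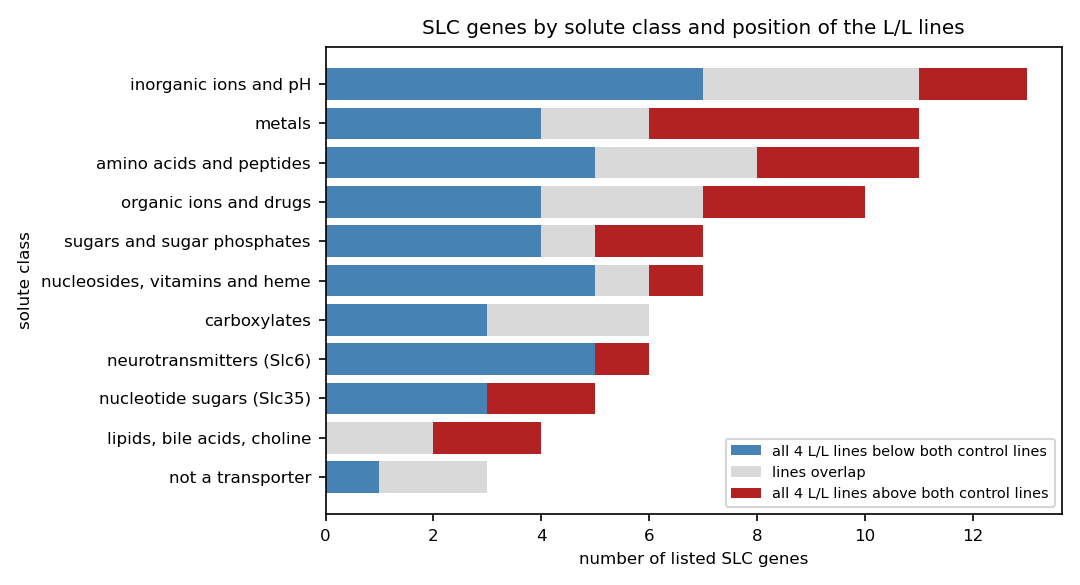
Bars count the listed SLC genes of each solute class (horizontal axis, number of genes) by whether all 4 NIC/Cpt1a L/L lines lay below both controls (blue), above both (red) or overlapped them (grey). The Slc6 carriers show 5 genes below and 1 above, and the metal carriers 4 below and 5 above.

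Levels between genes were compared per length, as FPKM. Of the 83 members, 32 had a mean FPKM of at least 10 over the lines and 23 a mean under 1. Slc7a5 had the highest mean, 132.6 FPKM over all lines, with 60.7 FPKM in NIC/Cpt1a L/L and 276 FPKM in controls. The others of the 5 highest means were Slc9a3r1, Slc38a2, Slc29a1 and Slc20a1, at 82.7, 78, 77.1 and 70.9 FPKM, and all 5 were lower in every NIC/Cpt1a L/L line. In NIC/Cpt1a L/L lines the mean of Slc44a2, at 75.5 FPKM, lay above that of Slc7a5, while in controls it was 32.8 FPKM.

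**Figure D3:**
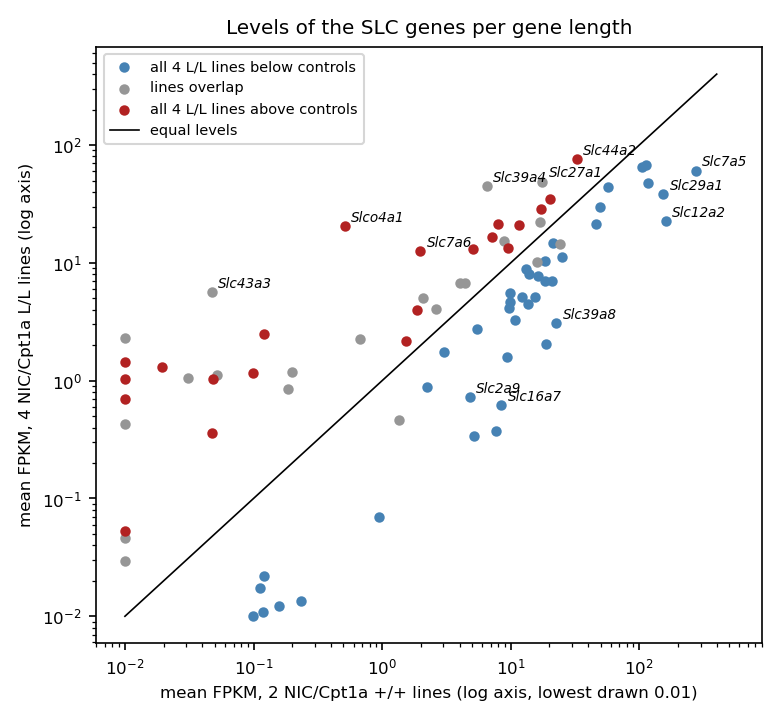
Each point is 1 SLC gene, with mean FPKM of the 2 controls on the horizontal and of the 4 NIC/Cpt1a L/L lines on the vertical axis, both log axes, and the line marks equal levels. Slc7a5 lies farthest right, at 276 FPKM in controls and 60.7 FPKM in NIC/Cpt1a L/L lines, and Slco4a1 lies far above the line.

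Among amino acid carriers, the leading gene was lower and a relative of it higher. Slc7a5 (chr8:121881150-121907694, mm10), which exchanges large neutral amino acids such as leucine across the plasma membrane, was at 142, 98.5, 370.1 and 234 CPM against 1079 and 923 CPM (log2 fold change -2.25 ± 0.52 (SE), adjusted p = 0.237). All 4 lines were below both controls, and KO_2768 was the highest of them. Slc7a6 (chr8:106168875-106198704), which exchanges cationic for neutral amino acids, was at 48.4, 57.3, 46.5 and 30.9 CPM against 2.71 and 12.5 CPM (log2 fold change 2.59 ± 0.68 (SE), adjusted p = 0.267), and here all 4 lines were above both controls. Slc38a2 (chr15:96687394-96699698), a sodium-coupled carrier of small neutral amino acids such as alanine and glutamine, was at 299.6, 314, 275 and 296 CPM against 521 and 471 CPM (log2 fold change -0.74 ± 0.15 (SE), adjusted p = 0.208). Its NIC/Cpt1a L/L lines lay close together and none reached the lower control. By library, edgeR's adjusted p was 0.00098 for Slc7a5, 0.00675 for Slc7a6 and 8.56e-05 for Slc38a2, with duplicates counted as samples. Slc7a3, a cationic amino acid carrier, was at 1.38, 1.2, 8.49 and 1.66 CPM against 0.0316 and 0.531 CPM (log2 fold change 3.48 ± 1.56 (SE), adjusted p = 0.453), well above the rest only in KO_2768, the line with Dcn at 1368 CPM. Slc43a3, placed here by family although it carries purine nucleobases, was at 8.35, 0.522, 49.5 and 0.0230 CPM against 0.0631 and 0.187 CPM, so it was above both controls in 3 lines and below the floor of 3 reads in KO_4258. The partner gene list held 17 genes, of which 3 are listed. Nptn, a relative of the carrier partner basigin, was at 178, 162, 206 and 194 CPM against 139 and 149.7 CPM, Tmem256 at 27.1, 31.4, 36.7 and 27 CPM against 52.7 and 50.6 CPM and Pdzk1ip1 at 3.38, 2.43, 7.21 and 0.276 CPM against 34.2 and 1.5 CPM. Slc3a2, the heavy chain that Slc7a5 and Slc7a6 share, was not analysed here.

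Promoter sequence was read for these genes because amino acid starvation and oxidative stress are known to act on carrier genes through short elements. RefSeq promoters (GRCm38.p6, upstream of the start and a short stretch after it) matched 63 of the 83 members with 93 windows. The antioxidant response element core TGACNNNGC, the core of the site Nrf2 is known to bind, was searched on both strands. It occurred in 15.1% of the members' windows and 12.4% of all 32851, and in 15.6% of windows of higher and 14.6% of lower members. The amino acid response element TGATGNAAN, read likewise for Atf4, occurred in 5.38% of the members' windows and 3.95% of all. It was in 4.44% of windows of higher and 6.25% of lower members, which is 2 and 3 windows. Of the members' windows, 0 held both elements. The shares are descriptions, and a match marks no bound site. Stretches around matches follow for 2 members lower and 2 higher in all NIC/Cpt1a L/L lines with the antioxidant core, then for 2 lower members with the amino acid element. The amino acid element also occurred in Slc9a9, which was higher in all lines, and in Slc23a3, which was higher by mean. Capitals mark the match, which in Slc39a8, Slc44a2 and Slco2a1 lies on the other strand and so reads as its reverse complement. For Slc44a2, Slc7a7 and Slco2a1 the window belongs to another RefSeq start than the listed gene start, at 21337828, 54409472 and 102988712. Which start these lines use was not tested.
Slc38a2, chr15:96699737-96699765, minus strand: ccccgcccacTGACGCGGCgccccgccgc
Slc39a8, chr3:135825234-135825262, plus strand: gatatcccgaGCGGCGTCAggaagggccc
Slc7a6, chr8:106168843-106168871, plus strand: ccggtgcgagTGACGTGGCgtgggcgggg
Slc44a2, chr9:21320707-21320735, plus strand: cgcgctggggGCGGTGTCAggcggggcag
Slc7a7, chr14:54418067-54418095, minus strand: cgcttgggctTGATGAAAGgttcactggg
Slco2a1, chr9:103008428-103008456, plus strand: gagagagcgcGTTTCATCAtcgctgccac
The amino acid response list, of 36 genes, has 7 listed and 0 called by line. Wars, the tryptophan tRNA ligase, was at 82, 88.2, 65.2 and 98.7 CPM against 173 and 114 CPM and Cebpb, a transcription factor, at 87.8, 71.6, 137 and 81.4 CPM against 159 and 153 CPM, both below controls in every NIC/Cpt1a L/L line. Nupr1, Sesn2 and Eif4ebp1 were above in every line, with Nupr1 at 169, 263, 157 and 438 CPM against 135 and 125 CPM. Yars and Gdf15 overlapped.

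Among carboxylate carriers, 3 members with low levels in every NIC/Cpt1a L/L line stood beside 3 that overlapped. Slc16a7 (chr10:125226464-125328963), a high-affinity carrier of lactate, pyruvate and ketone bodies, was at 2.28, 2.22, 1.43 and 3.43 CPM against 23.5 and 42.3 CPM (log2 fold change -3.81 ± 0.45 (SE), adjusted p = 0.115). Slc16a6 (chr11:109450855-109473598), known to export ketone bodies, was at 1.34, 0.913, 0.930 and 2.55 CPM against 37.6 and 7.37 CPM (log2 fold change -3.97 ± 0.77 (SE), adjusted p = 0.197). For each of the 2 genes, the highest NIC/Cpt1a L/L line was below the lower control, and the same line, KO_4258, was highest. Of the exon bases of Slc16a6, 21.5% overlap Amz2 on the opposite strand, and since the use of strand in counting is not stated its reads are uncertain. Slc16a8, a lactate carrier of pigment epithelium, was at 1.53, 1.17, 0.814 and 2.92 CPM against 5.33 and 3.12 CPM (log2 fold change -1.39 ± 0.66 (SE), adjusted p = 0.481). By library Slc16a8 overlapped, with 3.46 CPM in a KO_4258 library and 2.42 CPM in a WT_8905 library. Slc16a3, which exports lactate from glycolytic cells, went otherwise, at 1.68, 3.65, 13.4 and 0.138 CPM against 0.379 and 0.0937 CPM (log2 fold change 4.30 ± 1.96 (SE), adjusted p = 0.462). It was above controls in 3 of 4 lines, highest in KO_2768, and in KO_4258 between the controls.

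**Figure D4:**
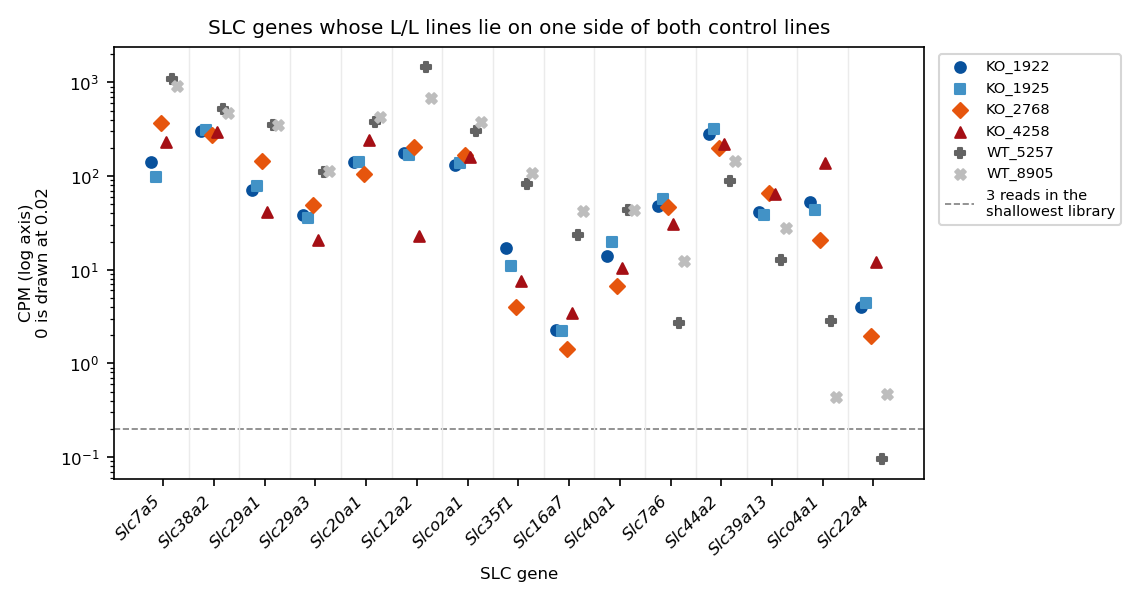
CPM on a log axis is shown for 15 SLC genes in the 6 lines, 1 marker per line, with coloured markers for the 4 NIC/Cpt1a L/L lines and grey for the 2 controls. For each of the 15 genes all 4 coloured markers lie on one side of both grey ones, and the distance ranges from narrow for Slc39a13 and Slc44a2 to wide for Slc16a7 and Slco4a1. The dashed line marks 3 reads in the shallowest control library, 0.197 CPM.

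The ion carriers that were lower included routes for sodium, chloride and phosphate. Slc12a2 (chr18:57878678-57946821), which brings sodium, potassium and chloride into cells together, was at 177, 168, 204 and 22.8 CPM against 1475 and 689 CPM (log2 fold change -2.92 ± 0.80 (SE), adjusted p = 0.274). The 3 other lines lay within 168 to 204 CPM, whereas KO_4258, the line with Csf1r at 312 CPM, had 22.8 CPM. Slc20a1 (chr2:129198764-129211616), a sodium-phosphate carrier, was at 141, 141, 106 and 244 CPM against 373 and 426 CPM (log2 fold change -1.34 ± 0.34 (SE), adjusted p = 0.255), and its relative Slc20a2, chosen after its values were seen, was at 124, 118, 66.7 and 121 CPM against 215 and 155 CPM. Slc26a8, an anion exchanger of sperm, was near the floor throughout, with at most 9 reads in any library. Slc9a9, an endosomal exchanger, was at 0.364, 0.235, 3.68 and 0.667 CPM against 0.158 and 0.187 CPM (log2 fold change 2.81 ± 1.46 (SE), adjusted p = 0.553) and stood out in KO_2768 alone. The scaffold gene Slc9a3r1, which anchors sodium-proton exchangers to the cytoskeleton, was at 136, 156, 106 and 116 CPM against 259.8 and 186 CPM (log2 fold change -0.80 ± 0.23 (SE), adjusted p = 0.282).

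Pumps that maintain the gradients these carriers use were examined as a list of 55 ATP-driven pump genes, of which 14 are listed. Of the 14, 10 had every NIC/Cpt1a L/L line below both controls and 3 had every line above, and of the 13 tested 10 were lower and 1 higher at an unadjusted p under 0.05, beside 29.0% and 21.5% of all genes, with 0 called after adjustment. Atp6v1b1, a subunit of the vacuolar proton pump known from acid-secreting cells, was at 6.56, 5.27, 53.6 and 0.276 CPM against 811 and 147 CPM (log2 fold change -4.87 ± 1.73 (SE), adjusted p = 0.357). Atp6v0a1, a membrane subunit of that pump, was at 36.1, 41.4, 58.1 and 106 CPM against 202 and 223 CPM (log2 fold change -1.82 ± 0.45 (SE), adjusted p = 0.255). The subunit gene Atp6v1b2 went the other way, at 411, 432, 403 and 413 CPM against 238 and 291 CPM (log2 fold change 0.65 ± 0.17 (SE), adjusted p = 0.263). Fxyd3, a regulator of the sodium pump, was at 9.3, 12.2, 24.4 and 7.24 CPM against 178 and 42.9 CPM (log2 fold change -3.06 ± 0.69 (SE), adjusted p = 0.235).

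Metal carriers were mixed, and 2 lower members stood beside 2 higher ones. Slc40a1 (chr1:45908068-45926523), ferroportin, the iron exporter, was at 14.2, 19.99, 6.63 and 10.3 CPM against 43.2 and 43.8 CPM (log2 fold change -1.77 ± 0.44 (SE), adjusted p = 0.255). Slc39a8 (chr3:135825279-135888572), an importer of zinc, manganese and iron, was at 7.33, 5.79, 6.28 and 32.6 CPM against 140.1 and 55.6 CPM (log2 fold change -2.91 ± 0.84 (SE), adjusted p = 0.284), with 3 lines near 6 to 7 CPM and KO_4258 near 33 CPM. Both genes were below both controls in every line. Slc39a13, which moves zinc from the Golgi and vesicles, was at 40.9, 38.5, 66.2 and 65 CPM against 12.8 and 27.9 CPM (log2 fold change 1.37 ± 0.44 (SE), adjusted p = 0.316), and Slc30a2, which loads zinc into vesicles of the secreting mammary gland, at 2.79, 12.4, 0.388 and 0.483 CPM against 0 and 0.125 CPM. Slc30a2 was at most 3 reads in any control library, and 2 of the 4 NIC/Cpt1a L/L lines had less than 0.5 CPM. Of the metal-handling list of 28 genes, 10 are listed and 9 were tested, with 4 higher and 2 lower at an unadjusted p under 0.05, beside 21.5% and 29.0% of all genes, and 0 called after adjustment. Steap1, of the Steap family of metal reductases, was at 15, 17.2, 33.5 and 29.8 CPM against 0.189 and 1.28 CPM (log2 fold change 5.01 ± 0.99 (SE), adjusted p = 0.201), and the iron storage gene Fth1 at 3182, 4591, 7375 and 15212 CPM against 1087 and 1345 CPM (log2 fold change 2.64 ± 0.76 (SE), adjusted p = 0.282). Tfrc, the transferrin receptor, was at 254, 294, 208 and 189 CPM against 450.2 and 326 CPM (log2 fold change -0.72 ± 0.25 (SE), adjusted p = 0.343).

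Nucleoside, vitamin and heme carriers were lower in all lines in 5 of 7 members, beside 38.2% of all genes tested. Slc29a1 (chr17:45585200-45599606), the main equilibrative nucleoside carrier of the plasma membrane, was at 70.6, 78.1, 145 and 41.8 CPM against 355 and 349 CPM (log2 fold change -2.07 ± 0.46 (SE), adjusted p = 0.229). The 2 controls differed by a factor of 1.02, and the NIC/Cpt1a L/L lines by 3.47. Slc29a3 (chr10:60712072-60752794), its lysosomal relative, was at 38.6, 35.5, 48.6 and 21 CPM against 110.3 and 114 CPM (log2 fold change -1.65 ± 0.32 (SE), adjusted p = 0.197), with KO_2768 highest and KO_4258 lowest, as for Slc29a1. Slc46a3, a lysosomal carrier, was at 1.41, 1.93, 3.53 and 8.46 CPM against 33.5 and 13.7 CPM (log2 fold change -2.62 ± 0.81 (SE), adjusted p = 0.306). Its family member Slc46a1, the proton-coupled folate carrier, chosen after its values were seen, was at 8.35, 9.66, 11.7 and 10.3 CPM against 29.8 and 20.4 CPM.

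Sugar and polyol carriers had 4 of 7 members lower in all lines and 2 higher, beside 38.2% and 35.1% of all genes tested, and Slc2a10 and Slc2a5 among them rest on values under the limit of 3 reads. Slc5a3, which imports myo-inositol, was at 30.2, 36.7, 78.9 and 78.7 CPM against 213 and 136 CPM (log2 fold change -1.64 ± 0.47 (SE), adjusted p = 0.281). Slc2a9, known for urate, was at 3.98, 1.12, 4.88 and 0.115 CPM against 20.9 and 14.6 CPM (log2 fold change -2.81 ± 1.2 (SE), adjusted p = 0.425), with KO_4258 lowest. Slc2a5, the fructose carrier, had 0 reads in every control library and 5.29, 3.13, 0.0775 and 0.0690 CPM in the NIC/Cpt1a L/L lines. The mean of the 4 lines exceeded the 3-read limit of the shallowest control library at least 10.9-fold, and 2 lines held nearly all of it. Slc2a10 did not pass the filter and was near the floor in 5 of 6 lines, with 1.06 CPM in WT_8905.

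In the Slc6 family, Slc6a2 (chr8:92960079-93001667), the noradrenaline carrier, was at 2.94, 2.56, 3.26 and 0.0230 CPM against 68.5 and 27.9 CPM (log2 fold change -4.46 ± 1.34 (SE), adjusted p = 0.293). KO_4258 had 0.023 CPM, under the floor, and the 3 others lay between 2.56 and 3.26 CPM. Slc6a18, a neutral amino acid carrier of kidney, was at 0.0243, 0.0783, 0.0775 and 0.0460 CPM against 1.14 and 0.968 CPM, at most 2 reads in any NIC/Cpt1a L/L library. Slc6a19, which lies 1721 bases from it on chromosome 13 and was chosen after its values were seen, was at 0.194, 0.365, 0.504 and 0.0920 CPM against 3.09 and 5.12 CPM. Slc6a12, which carries betaine and GABA, was the member higher in all lines, at 1.89, 1.41, 7.01 and 0.253 CPM against 0 and 0 CPM. With 0 reads in every control library, its mean was at least 13.4-fold higher than the 3-read limit.

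Of the 10 organic ion and drug carriers, 3 were higher and 4 lower in all NIC/Cpt1a L/L lines, near the 35.1% and 38.2% of all genes tested. Slco4a1 (chr2:180456245-180474867), an organic anion carrier that takes up thyroid hormone, was at 53, 43.5, 20.9 and 139 CPM against 2.84 and 0.437 CPM (log2 fold change 5.29 ± 1.26 (SE), adjusted p = 0.249). Slc22a4 (chr11:53983123-54028090), which carries ergothioneine, was at 4.01, 4.44, 1.98 and 12 CPM against 0.0947 and 0.468 CPM (log2 fold change 4.30 ± 1.19 (SE), adjusted p = 0.275). Slco1a6 was at 0.291, 1.88, 0.349 and 9.22 CPM against 0 and 0.281 CPM, highest in KO_4258, and its neighbour Slco1a5 at 12.7, 11, 18.5 and 2.69 CPM against 48.7 and 24.3 CPM (log2 fold change -1.70 ± 0.71 (SE), adjusted p = 0.415). These 2 genes lie 25705 bases apart on chromosome 6 and are close relatives, so reads may be split between them, as for Slc22a4 and Slc22a21. The separation of Slco1a6 was narrow, at 0.291 CPM in KO_1922 against 0.281 CPM in WT_8905. A KO_1922 library at 0.229 CPM lay below the WT_8905 libraries, at 0.255 and 0.329 CPM. Slc22a15 was at 13, 14, 7.79 and 19.3 CPM against 26.3 and 29.9 CPM (log2 fold change -1.05 ± 0.38 (SE), adjusted p = 0.363). Slc22a29 had 0 reads in every control and KO_4258 library and 6.43, 12.2 and 1.51 CPM in the other lines. Slco2a1, the prostaglandin carrier, chosen after its values were seen, was at 130.4, 137, 167 and 161 CPM against 299 and 377 CPM (log2 fold change -1.18 ± 0.18 (SE), adjusted p = 0.166), with all 4 NIC/Cpt1a L/L lines below both controls.

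Of the remaining classes, the choline-carrier relative Slc44a2 (chr9:21337828-21355025) was at 284, 319.6, 200.2 and 221 CPM against 88.7 and 145 CPM (log2 fold change 1.13 ± 0.31 (SE), adjusted p = 0.274). Slc10a6, a carrier of steroid sulfates, did not pass the filter and was at 0.121, 0.261, 11.4 and 0.276 CPM against 0 and 0 CPM, so nearly all its reads came from KO_2768. In the nucleotide sugar family Slc35, 3 of 5 members were lower and 2 higher in all lines, beside 38.2% and 35.1% of all genes tested. Slc35f1 (chr10:52690533-53111622), with no settled solute, was at 17, 10.8, 3.99 and 7.59 CPM against 82.9 and 109 CPM (log2 fold change -3.28 ± 0.54 (SE), adjusted p = 0.173). Slc35a5 was at 22.9, 18.9, 25.9 and 25 CPM against 48 and 37.6 CPM (log2 fold change -0.88 ± 0.22 (SE), adjusted p = 0.255), and Slc35d2, a Golgi carrier of nucleotide sugars, at 8.72, 6.52, 6.98 and 13.5 CPM against 5.37 and 3.43 CPM (log2 fold change 1.02 ± 0.49 (SE), adjusted p = 0.496). Of the 42 members outside the naming rule, 8 were higher and 17 lower in all lines and 17 overlapped.

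Many members also differed among the 4 NIC/Cpt1a L/L lines. Among the 63 members whose highest NIC/Cpt1a L/L line reached 5 CPM, 20 spread at least 4-fold between their highest and lowest line, which is 31.7% beside 21.1% of all 3336 such genes. Their median ratio of highest to lowest was 2.30, and 1.75 over all genes. KO_2768 was the highest line in 23 of the 63 and KO_4258 in 20, while KO_1922 was highest in 4. Among all genes these lines were highest in 29.7%, 34.0% and 14.8%. In the 17 members with 3 of 4 lines above both controls, KO_4258 was the line left behind in 10, KO_1925 and KO_2768 in 3 each and KO_1922 in 1. Over the 962 such genes of the whole table, KO_4258 was the line left behind in 49.8% and KO_2768 in 37.0%. The duplicates of KO_4258 also differed more than those of other lines, with a chi-square per degree of freedom of 9.25 beside 2.09 to 3.07, and Slc7a3 had 59 and 13 reads in them. Slc16a11 stood at 0.947, 6.92, 0.0388 and 0.0230 CPM against 0.0631 and 0.0624 CPM, highest in KO_1925 and above both controls also in KO_1922. Slc39a4, an importer of zinc chosen after its values were seen, was at 139, 101, 143 and 3.96 CPM against 2.15 and 27.6 CPM. The fatty acid carrier Slc27a1, likewise, was at 74.2, 53.9, 103 and 319 CPM against 36.3 and 65.6 CPM, above both controls in KO_2768, KO_4258 and KO_1922 and between them in KO_1925. The leukocyte and mesenchymal markers that move with KO_4258 and KO_2768 are given above, and their part in these members was not tested.

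**Figure D5:**
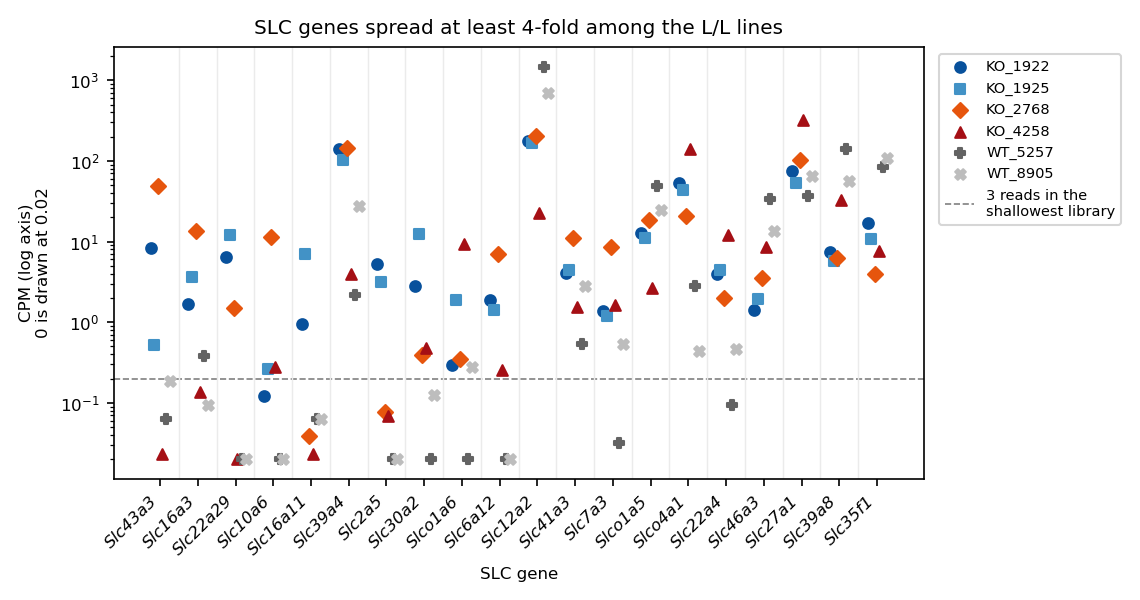
The 20 SLC genes spread at least 4-fold among the NIC/Cpt1a L/L lines are ordered by that spread, with CPM on a log axis, 1 marker per line, values at 0 drawn at 0.02 and the dashed line at 3 reads in the shallowest control library. KO_2768 leads Slc43a3, Slc16a3 and Slc10a6, and KO_4258 leads Slco4a1, Slc22a4 and Slc27a1.

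Without KO_2768 and KO_4258, 33 of the 77 members were above both controls in both remaining lines and 39 below, beside 54.3% and 40.2% of all genes tested. Over all 83 members these counts were 35 and 43, against 21 and 41 with 4 lines. With fewer lines to agree such counts can only stay or rise, for members and all genes alike. By position, on chromosome 4, 3 of 4 members were higher beside 84.4% of listed genes there, whereas on chromosome 17 only 1 of 4 was higher beside 84.8%. On chromosome 8, where Slc7a5, Slc7a6 and Slc6a2 lie, 4 of 8 members were higher beside 76.5% of listed genes.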

How the data were processed

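RNA-Seq of mammary tumor-derived cell lines was compared between NIC/Cpt1a L/L and NIC/Cpt1a +/+. Members and lists were chosen with earlier results of these data known, and the table lists genes that the authors selected on these libraries.

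The authors aligned reads to mm10 with STAR v2.5 and deposited counts per gene from HTSeq v0.6.1, without normalization. The submitters' processing notes also name Trimmomatic, edgeR and limma. The authors also deposited a normalized signal, obtained by scaling each library's counts with 1 factor, and FPKM per gene length and library total. The deposited p-value and adjusted p-value columns of the authors' DESeq2 comparison were used only to derive the number of tests, 17561. That number is the median, over the listed genes, of the value these columns imply. The authors' log2 fold changes were not used. Whether counting used strand is not given in the sources used here.

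Library totals were recovered from counts, lengths and FPKM, since listed genes hold 33.3% to 34.6% of the reads of a library. Counts were summed by line and tested in R 4.3.3 with edgeR 4.0.16 (quasi-likelihood, TMM, filterByExpr, threshold 0.05), and with DESeq2 1.42.0 as an alternative, and figures were drawn with matplotlib 3.10.9. The filter kept 4268 genes by line and 3940 by library, and 6 members did not pass it by line. SEs are the fold change over the root of the F statistic. The fit by line was also run on simulated counts with the same spread for every gene and most genes unchanged. The listed genes were selected for differing, so that run is no check on the calls here. Duplicates had r of 0.994 to 0.995 and a chi-square per degree of freedom of 2.09 to 3.07, or 9.25 in KO_4258, and p-values by library count them as samples. Named genes were up to 3 separated members with the largest fold change per solute class, the 5 of highest FPKM, listed genes fixed by name, opposed pairs within families, and the 5 of widest spread. By name, 1 member of the naming rule is not reported here and is not drawn in the heat map.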

Additional observations from a re-analysis of the deposited data

Results flagged for a closer look

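In 12 of the 83 members, or 14.5%, 1 NIC/Cpt1a L/L line lay far from the other 3 by Dixon's criterion, beside 12.9% of the 4446 listed genes with a spread among these lines. For normally distributed values chance meets the criterion in about 1 in 20 groups. The CPM values, some near 0, were not checked for that distribution, so the share over all listed genes is the one to read against. The 12 include 6 of the 41 genes of the naming rule, with the values that follow. In KO_2768, Slc43a3 had 49.5 CPM beside 0.023 to 8.35 CPM in the other 3 lines, Slc10a6 had 11.4 CPM beside 0.121 to 0.276, Slc7a3 had 8.49 CPM beside 1.2 to 1.66 and Slc9a9 had 3.68 CPM beside 0.235 to 0.667. In KO_4258, Slc39a8 had 32.6 CPM beside 5.79 to 7.33. In KO_1925, Slc16a11 had 6.92 CPM beside 0.023 to 0.947. KO_2768 is the line with 1 library and with 1393 CPM of mesenchymal markers, of which Dcn gave 1368 CPM, and the part of either in these values was not tested.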

How the results depend on the processing

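By line, DESeq2 in place of edgeR called 9 members higher and 26 lower against 0 and 0, and adjusting over the listed genes alone called 6 lower. By library, where edgeR called 13 higher and 34 lower, DESeq2 called 26 higher, adjusting over the listed genes alone called 28 higher, and the replicate block called 10 higher and 33 lower. The replicate numbers did not pair the libraries, since the correlations of same-numbered deviations over 10 line pairs ran from -0.05 to 0.067. Leaving out each line in turn gave 0 calls by line, and left 22 to 31 members above and 41 to 43 below both controls. With lines left out, these separation counts can only stay or rise from 21 and 41, since fewer lines must agree. They are therefore no check on the separation. Without KO_2768 and KO_4258, an alternative chosen after seeing the data, 35 members were above. TMM factors came from the listed genes that passed the filter, which were selected for differing between the genotypes. With all lines and DESeq2 size factors, also from these genes, 18 members were above and 42 below both controls. Library totals without TMM gave 22 above and 41 below. Over 463 refits of 39 named genes, 431 kept direction and side of the threshold, 32 passed it and 0 reversed. These genes were listed for differing in the same libraries, so the lack of reversals is no check on their direction. Refits of Slc16a11 and Slc2a5 without KO_1922 or KO_1925, and of Slc26a8 with 1 library per line, gave no value. Of the 32, 27 passed under DESeq2 in place of edgeR and 5 when adjusted over the listed genes alone. The cause of the differences between settings was not tested. Depth limits members under the floor of 3 reads.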
